A study of Gallus gallus with 2 samples.

Results

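Mesoderm-3 is one of the 16 classes into which the authors divided the cells of gastrula-stage chicken embryos at Hamburger-Hamilton stage HH5. Its members were taken as every cell with that name in the deposited class column, which gave 136 of 7750 cells, or 1.75% (exact 95% interval 1.47 to 2.07%). Among the 2936 cells of the 6 mesoderm classes they made up 4.63% (3.90 to 5.46%). The cells came from whole embryos that were dissected, dissociated with enzymes and run as 1 preparation of the 10x Multiome protocol, in which every cell yields both an RNA profile and a profile of its accessible chromatin (ATAC). The RNA library and the ATAC library therefore describe the same cells, with 7750 distinct barcodes, and no genotype, treatment or second stage was compared. In the labels, both libraries carry the antero-posterior axis.

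The mesoderm of the bird gastrula arises from epiblast cells that pass inward through the primitive streak, the midline groove of the embryo. Cells that leave the streak at different levels take different routes and give rise to axial, paraxial, intermediate, lateral and extraembryonic mesoderm, including blood-forming tissue. The epiblast cells that stay outside become ectoderm, of which the neural plate and the nonneural ectoderm are the main divisions. Which of these lineages mesoderm-3 belongs to is not stated in the sources used here. The table holds no gene values, so the name could not be checked against marker genes, and it is used here as the authors' label.

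Each cell had 2 coordinates of a weighted nearest neighbour UMAP, an embedding that sets cells close together when their combined RNA and ATAC profiles are alike. Distances in it are not distances in the embryo. All 136 mesoderm-3 cells also had an ATAC rank, a whole number from 1 to 6681 given to the cells of 13 classes. Neither the ranked quantity nor whether the rank follows the antero-posterior axis is stated by the labels or the file. Ranks are therefore called low or high. There was no replicate preparation, cells are not replicates, and no difference between classes was tested. The depth behind each rank is unknown. Intervals cover counting error only. The embedding, the rank and, by the header of their column, the cluster names may all draw on the same profiles, so relations among them are not between independent measurements.

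Mesoderm-3 lay in the middle of the mesoderm and, in smaller number, in the ectoderm. On the first coordinate its cells ran from -2.59 to 0.73 with a median of -1.60. On the second they ran from -6.53 to 5.04 with a median of 3.15 (quartiles 2.61 and 3.57). Each cell was placed by the tissue that held most of its 15 nearest cells. By this measure 113 cells, or 83.1% (75.7 to 89.0%), lay among mesoderm, 22 cells, or 16.2% (10.4 to 23.5%), lay among ectoderm, and 1 cell lay among the primitive streak.

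**Figure D1:**
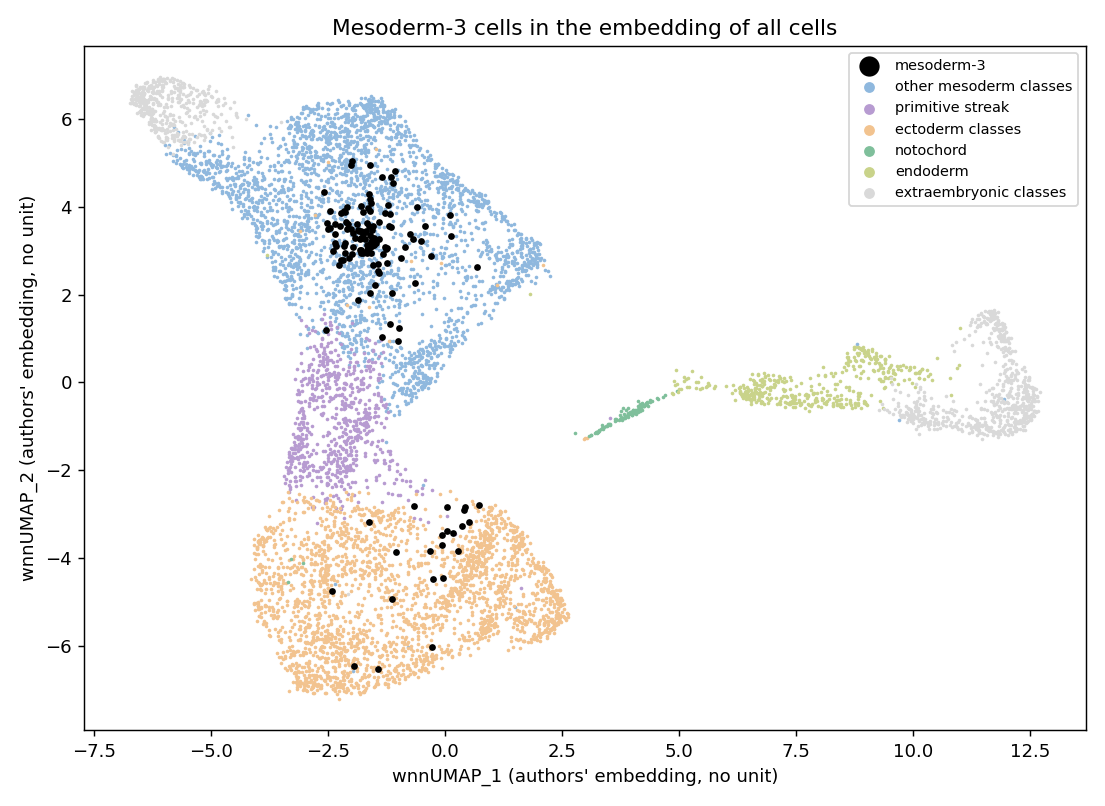
Position of the mesoderm-3 cells (black points) in the authors' embedding of all 7750 cells, coloured by tissue; both axes are embedding coordinates without a unit. Of the 136 cells, 113 lie among mesoderm in the upper part, 22 among ectoderm in the lower part and 1 among the primitive streak.

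The mesodermal and the ectodermal cells were separated on the second coordinate by a stretch of 3.73, from -2.79 to 0.95, that held no mesoderm-3 cell. Within the span of mesoderm-3 on the first coordinate, this stretch held 719 other cells. Of these, 437 (60.8%) were primitive streak, 227 (31.6%) were mesoderm-6 and 35 (4.87%) were mesoderm-2. On the second coordinate, mesoderm-3 was thus found both above and below this stretch. It was not the only mesoderm class with cells below it. The lowest cell was at -6.58 in mesoderm-2, -5.12 in mesoderm-1 and -4.59 in mesoderm-4, whereas mesoderm-5 and mesoderm-6 did not reach below the stretch. How many cells of these classes lay there was not counted. The 1 cell placed among the streak lay above the stretch, at 1.18 on the second coordinate.

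The class that surrounded mesoderm-3 most was mesoderm-2. It supplied 45.7% of the 15 nearest cells, averaged over the 136 cells, and 110 of them had at least 1 mesoderm-2 cell nearby. Mesoderm-3 itself supplied 26.6%. Of all 7750 cells, mesoderm-2 made up 10.3% and mesoderm-3 1.75%. Every other class supplied less than its own share of all cells. Mesoderm-1 supplied 7.65% and touched 38 cells, and mesoderm-4 supplied 2.79% and touched 22. Of the ectoderm classes, nonneural ectoderm-2 supplied 6.08%, nonneural ectoderm-1 2.70%, neural ectoderm-2 2.60% and neural ectoderm-1 2.50%, also averaged over all 136 cells. The primitive streak supplied 1.37% and mesoderm-5 1.13%. Mesoderm-6 supplied 0.931%, under the 1% at which a class was counted as surrounding. None of the 136 cells had a nearest cell from the notochord, endoderm, extraembryonic endoderm, area opaca or blood islands, which allows up to 2.21% of cells for each of these classes.

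Seen from the other side, mesoderm-3 reached into a large part of mesoderm-2. Of the 799 mesoderm-2 cells, 330 (41.3%) had at least 1 mesoderm-3 cell among their 15 nearest, and mesoderm-3 made up 7.88% of the nearest cells of that class. In mesoderm-1 the share of cells with mesoderm-3 nearby was 11.0% (86 of 783), and in the other ranked classes with any it ranged from 3.24% in the primitive streak to 8.08% in neural ectoderm-2.

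Mesoderm-3 was interspersed with other cells rather than compact. The median distance of a mesoderm-3 cell to its nearest other cell of any class was 0.0508, against 0.0457 in mesoderm-2. Its median distance to the nearest cell of its own class was 0.111, against 0.0512 in mesoderm-2 and 0.0201 in the notochord, which with 114 cells is the ranked class of most similar size. In the area opaca, an unranked class of 151 cells, it was 0.0313. The number of own-class cells among the 15 nearest ranged from 0 to 11 with a median of 3. It was 0 in 25 cells and 8 or more in 29 cells.

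A dense patch was present within this scatter. When mesoderm-3 cells closer than 0.3 in the embedding were linked into groups, the largest group held 87 cells, all among mesoderm, between -2.53 and -1.15 on the first coordinate and between 2.04 and 4.29 on the second. Around its median position, at -1.71 and 3.28, a circle of radius 0.5 held 46 mesoderm-3 cells, 53 mesoderm-2 cells and 1 mesoderm-1 cell. Even at the centre of the patch the 2 main classes were mixed in similar numbers. The second largest group held 9 cells among ectoderm, around 0.18 and -3.38, where nonneural ectoderm-2 was the main neighbour. Another group, of 5 cells, lay on the side of the patch that faces mesoderm-5, at -0.75 and 3.21. Of the 31 groups, 24 were single cells.

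The ATAC rank of mesoderm-3 was intermediate and wide. The lowest cell had rank 735, the median was 3857 (quartiles 3059 and 4359.25, binomial 95% interval of the median 3648 to 4004) and the highest cell had rank 6252. The SD over the 136 cells was 1163, close to 1159 in mesoderm-2. By median, mesoderm-3 was the eighth of the 13 ranked classes from the low end. It stood between mesoderm-5 at 2559.5 and mesoderm-6 at 4653.5. When the rank was divided into 10 bins of nearly equal size, bins 6 and 7 held 38 and 31 mesoderm-3 cells. Bin 1 held none and bin 10 held 1 cell.

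Compared with whole classes, the 136 mesoderm-3 cells as a whole ranked above the ectoderm classes and mesoderm-5 and below the other mesoderm classes and the streak around them. A mesoderm-3 cell ranked above a cell of neural ectoderm-1 in 97.5% of pairs, of neural ectoderm-2 in 86.4%, of nonneural ectoderm-2 in 86.3% and of nonneural ectoderm-1 in 83.4%, where 50% would mean equal levels. The share for mesoderm-5 was 79.8%. A mesoderm-3 cell ranked above a primitive streak cell in 27.5%, above a mesoderm-2 cell in 25.3%, above a mesoderm-1 cell in 19.2% and above a mesoderm-4 cell in 8.19%. Mesoderm-4 holds the high end of the rank, and 122 of the 136 mesoderm-3 cells ranked below its lower quartile of 5064. Against the mesoderm-2 lower quartile of 3915 this held for 72 cells, or 52.9%.

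**Figure D2:**
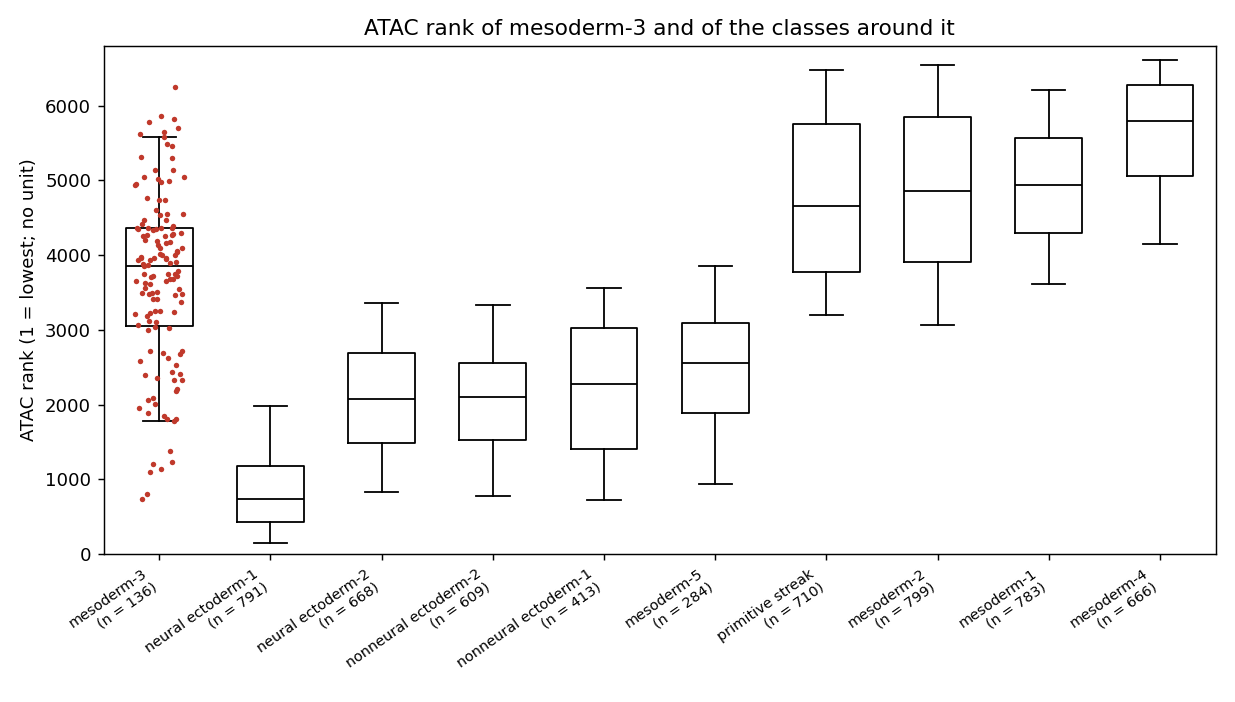
ATAC rank (vertical axis, no unit) of mesoderm-3, with each cell as a red point, and of the 9 classes that surround it, ordered by median. Boxes show the quartiles and median and whiskers the 5th and 95th percentiles over cells. The mesoderm-3 median of 3857 lies above those of the ectoderm classes and mesoderm-5 and below those of the streak and the other mesoderm classes shown.

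Part of the wide spread of mesoderm-3 ranks went together with where its cells lay, although the cells among mesoderm alone covered most of the range. The 113 cells among mesoderm had ranks from 1099 to 6252 with a median of 3978 (quartiles 3498 and 4473). The 22 cells among ectoderm had ranks from 735 to 3259 with a median of 2039.5 (quartiles 1805 and 2566.75). The quartile ranges did not overlap, although 21 of the mesodermal cells ranked below the highest ectodermal one. All 22 cells among ectoderm were below the middle rank of 3341, against 21 of the 113 cells among mesoderm. A cell among mesoderm ranked above a cell among ectoderm in 95.2% of pairs, and the 2 locations accounted for 39.8% of the rank variance of these 135 cells. The single cell among the streak had rank 5581. Against whole ectoderm classes, the 22 cells among ectoderm were not higher as the whole of mesoderm-3 was. They ranked above nonneural ectoderm-2 cells in 48.7% of pairs, above neural ectoderm-2 cells in 48.7% and above nonneural ectoderm-1 cells in 43.2%. The exception was neural ectoderm-1, with 89.2%.

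Whole classes also include cells that have no mesoderm-3 cell nearby, so each mesoderm-3 cell was next compared with its own surroundings. The measure was the rank of the cell minus the median rank of the cells of a given class among its 15 nearest. For mesoderm-2 the median difference was -1058.5 over 110 cells (quartiles -1748.25 and -397, binomial 95% interval -1327.5 to -831), and 91 of the 110 ranked lower than the mesoderm-2 cells beside them. The single differences ran from -4308 to 1739. The median rank was 4004.5 (quartiles 3495 and 4522) in the mesoderm-3 cells concerned, against 5026 (quartiles 4270.5 and 5745) in the 347 mesoderm-2 cells beside them. The 2 quartile ranges overlapped.

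Toward the other mesoderm classes the difference had the same sign. Beside mesoderm-1 it was -1091.75 over 38 cells (quartiles -1788.75 and -263.5), with 33 cells lower. Beside mesoderm-4 it was -1393 over 22 cells (quartiles -1769.5 and -1116), with 20 cells lower. Beside mesoderm-5, whose whole-class median lies below that of mesoderm-3, the 4 mesoderm-3 cells concerned had a median difference of -485.25, and 3 of them were lower. The mesoderm-5 cells beside mesoderm-3 had a median of 3571.5, higher than the mesoderm-5 median of 2559.5. The order of these 2 classes therefore differed between the whole class and the few neighbouring cells. Beside the primitive streak, 9 of 10 mesoderm-3 cells were lower and the median difference was -618.5 (quartiles -926.5 and -309.5). These 10 were not split by location. Their upper rank quartile, 3125, was below the lower quartile of 3498 for the cells among mesoderm. It fell inside the range of those among ectoderm, 735 to 3259. The streak value therefore cannot be read as one for cells among mesoderm alone.

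Toward ectoderm, the median difference was below 0 beside each class but neural ectoderm-1. These values rest on the few mesoderm-3 cells beside each class, so they differ from the percentages of pairs over all 136 cells both in the mesoderm-3 cells used and in the cells they are set against. Beside nonneural ectoderm-2, 12 of 14 mesoderm-3 cells ranked lower than the adjacent cells and the median difference was -583 (quartiles -848.25 and -418.25). Beside nonneural ectoderm-1 the difference was -580 over 13 cells (quartiles -858 and 49), with 9 cells lower. Beside neural ectoderm-2 it was -410 over 7 cells (quartiles -725.75 and -174.5), with 5 lower. Beside neural ectoderm-1 it was 263.5 over 6 cells (quartiles -30.9 and 549), with 3 lower and 3 higher. The counts in these last classes are small, and the cells beside more than 1 class are counted in each.

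All nearby cells of other classes, pooled, gave a median difference of -926.25 over the 136 cells (quartiles -1676.62 and -342.5), with 111 cells, or 81.6%, lower. Among mesoderm it was -1098 (quartiles -1743 and -393), with 94 of 113 lower. Among ectoderm it was -451.25 (quartiles -736.125 and 22.25), with 16 of 22 lower. Its binomial 95% interval, -781.5 to 36, included 0, and with 50 nearest cells the value was -160.25.

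The same measure was taken for the other 12 ranked classes, with mesoderm-3 cells left out of their surroundings, over those cells that had any ranked cell of another class nearby. Their median differences ran from -301 in neural ectoderm-1 (171 cells, quartiles -956 and 107) to 414.5 in mesoderm-1 (247 cells, quartiles -365.75 and 1051). In mesoderm-2 it was 136 (396 cells, quartiles -455.25 and 672.625), and in mesoderm-5 it was -44 (77 cells). In the notochord it was -126 (22 cells). Mesoderm-3 had the lowest of the 13 medians, and its quartile range was the one that did not include 0. In every class other than mesoderm-3 only border cells enter this measure, whereas all 136 mesoderm-3 cells did.

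**Figure D3:**
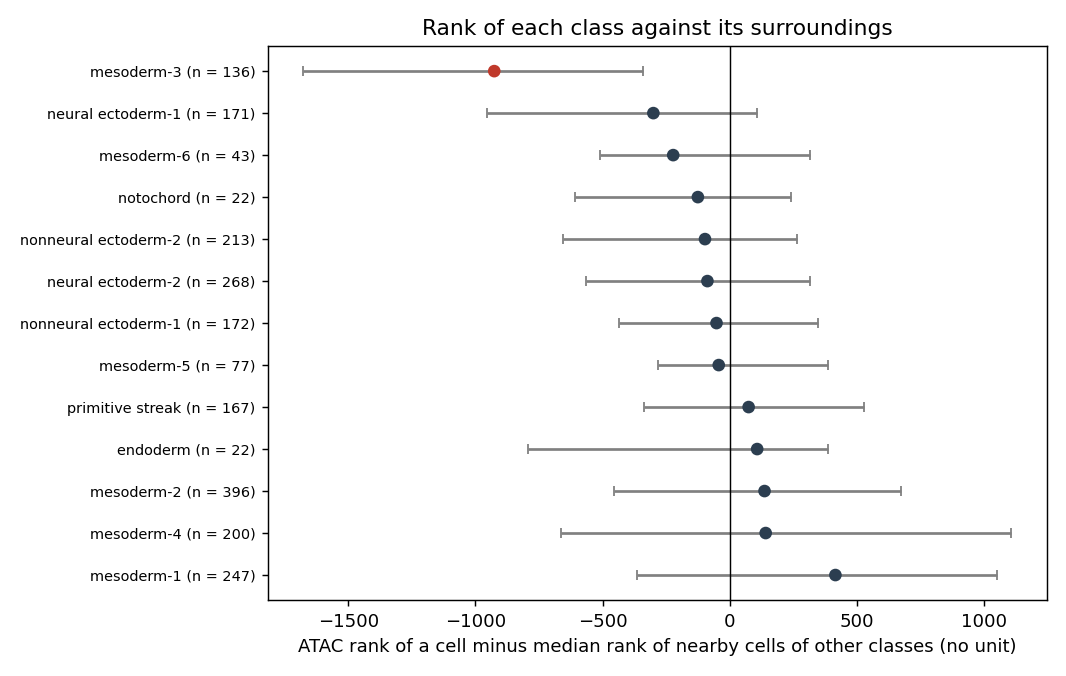
Difference in ATAC rank between a cell and the median of its nearby cells of other classes (horizontal axis, no unit) for the 13 ranked classes, mesoderm-3 at the top and the others by rising median. Points are medians and bars the quartiles over cells, and mesoderm-3 cells were left out of the surroundings of the other classes. The mesoderm-3 median is -926.25 and the others lie between -301 and 414.5.

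A reference for the spread within 1 class came from mesoderm-2 cells at the same places. For 109 mesoderm-3 cells, the nearest mesoderm-2 cell was set against the remaining mesoderm-2 cells of the same neighbourhood. The mesoderm-3 cells differed from these by a median of -1163 (quartiles -1798 and -384.5), with 90 of 109 lower. Over the 109 matches, the matched mesoderm-2 cells differed from the same cells by a median of -158 (quartiles -659 and 425), with 60 of the 109 lower. Cells set against their own class at the same place differ little by construction. The quartiles of the matched cells therefore show the spread within mesoderm-2, and their small median is not a result about mesoderm-3. Only 83 of the matched cells were distinct, so some were counted more than once. In direct pairs, the mesoderm-3 cell ranked below its matched mesoderm-2 cell in 87 of 109 cases, with a median difference of -881 (quartiles -1792 and -174). Within the circle of radius 0.5, the median rank was 4358 in the 46 mesoderm-3 cells (quartiles 3865.75 and 5035.5) and 5247 in the 53 mesoderm-2 cells (quartiles 4463 and 5731). The circle pools cells over a wider area than the 15 nearest cells of its densest part. It holds all 29 mesoderm-3 cells with 8 or more own-class cells among their 15 nearest. Against their nearby cells of other classes, these 29 had a median difference of 55, with 14 lower and 15 higher.

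Mesoderm-2 cells with mesoderm-3 nearby were not themselves low. The median rank was 5002.5 in the 330 mesoderm-2 cells with a mesoderm-3 cell among their 15 nearest (quartiles 4250 and 5771.25). It was 4699 in the 469 without one (quartiles 3637 and 5937).

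**Figure D4:**
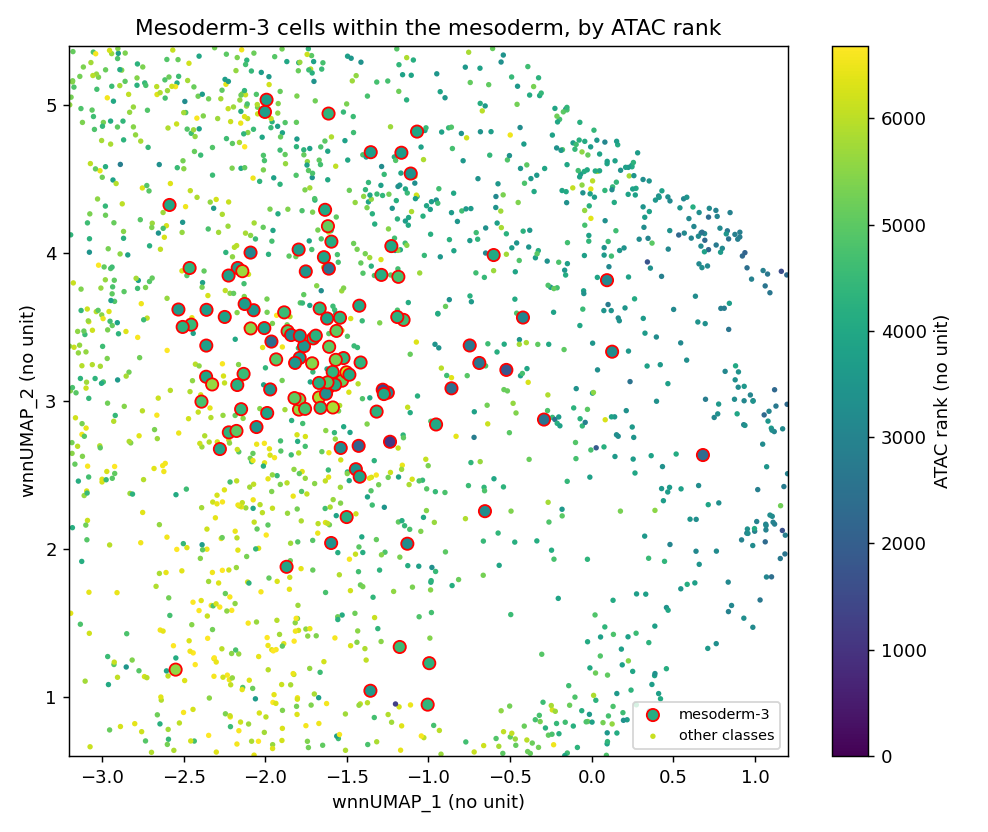
The part of the embedding that holds the mesodermal mesoderm-3 cells, with both axes as embedding coordinates without a unit and colour showing the ATAC rank. Red outlines mark mesoderm-3, and small points are cells of other classes. Most outlined cells, with a median rank of 3978 over the 113 among mesoderm, are of lower rank than the cells around them.

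Among mesoderm, the rank of a mesoderm-3 cell went with how many cells of its own class lay nearby. The 29 cells with 8 or more own-class cells among their 15 nearest, all inside the 87-cell group, had a median rank of 4477 (quartiles 4050 and 5303). The 30 cells with 4 to 7 had a median of 4231.5 (quartiles 3809.25 and 4446.75). The median was 3746 in the 41 cells with 1 to 3 (quartiles 3412 and 4157) and 3245 in the 13 cells with 0 (quartiles 3104 and 3968). Across the 113 cells, Spearman's rho between this number and the rank was 0.41, a description over cells that share 1 library of each kind and 1 embedding.

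The difference from the surroundings was larger in cells with fewer than 8 own-class cells nearby, without a steady change among these. Its median was -1250 with 0 own-class cells nearby, -1390 with 1 to 3 and -1320.5 with 4 to 7. In the 84 mesodermal cells with fewer than 8 own-class cells nearby the median difference from nearby cells of other classes was -1339 (quartiles -1768.5 and -694.625), and 80 of them were lower. The 29 cells with 8 or more had a median difference of 55 (quartiles -968 and 754.5), with 14 lower and 15 higher. Their surroundings differed as well as their own ranks. The surrounding median was 4869 (quartiles 4479.5 and 5292) in these 29 cells and 5508 (quartiles 4822 and 5848.75) with 4 to 7 own-class cells nearby. It was 5140.5 with 1 to 3 and 4604 with 0. For these 29 cells only 4 to 7 cells of other classes were available as surroundings. With 50 nearest cells their median difference was -372, so its sign was not settled, and that of the 84 cells was -1256.75. The 6 highest mesoderm-3 ranks, from 5647 to 6252, included 5 cells with 8 or more own-class cells nearby. The lowest rank among mesoderm, 1099, belonged to a cell with 2 own-class cells nearby and a surrounding median of 5407.

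The relation of rank to place differed between the 2 locations. Among mesoderm, the rank of a mesoderm-3 cell showed almost no relation to the median rank of the nearby cells of other classes, with Spearman's rho = 0.054 across 113 cells. For the 330 mesoderm-2 cells with mesoderm-3 nearby, rho with the median of their nearby cells other than mesoderm-3 was 0.47. Those nearby cells include other mesoderm-2 cells, whereas the value for mesoderm-3 leaves out its own class. The values of 0.47 and 0.054 are therefore not a like comparison. Among ectoderm, rho was 0.79 across 22 mesoderm-3 cells. There the rank also went with the second coordinate (rho = 0.88). The 3 cells whose main neighbour was neural ectoderm-1 had ranks of 735, 1138 and 1233. The 12 cells whose main neighbour was nonneural ectoderm-2 had ranks from 1804 to 3021 with a median of 2282. Over all 136 cells rho was 0.42, a value that spans the 2 locations and does not describe either. The difference between the rhos was not tested, and the 2 sets of surroundings differ in how wide a range of ranks they cover. The quartiles of the surrounding medians were 4666 and 5471 among mesoderm, and 1701 and 3084 among ectoderm.

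**Figure D5:**
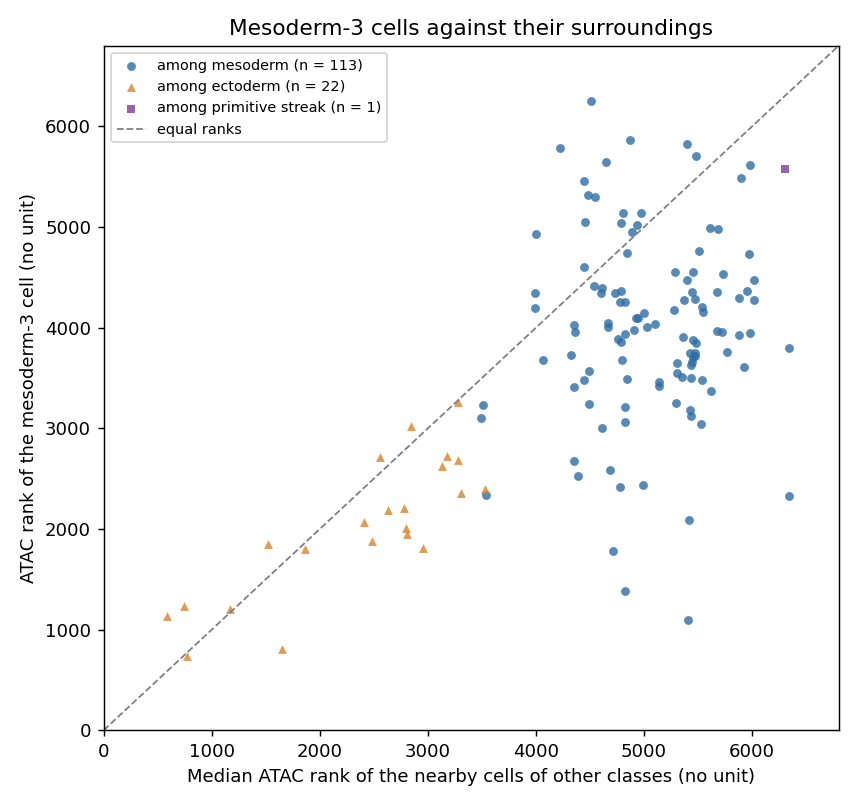
ATAC rank of each mesoderm-3 cell (vertical axis) against the median rank of the nearby cells of other classes (horizontal axis), both without a unit; the dashed line marks equal ranks. Of the 113 cells among mesoderm (circles), 94 lie below the line with no clear slope. The 22 cells among ectoderm (triangles) rise from left to right, with 16 of them below the line.

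Within mesoderm, mesoderm-3 ranks tended to fall along the first coordinate of the embedding and showed almost no relation to the second. A correlation along a coordinate does not show differences between the centre and the edge of the patch. Across the 113 cells, Spearman's rho of the rank was -0.25 for the first coordinate and -0.02 for the second. Pearson's correlation was -0.36 for the first and 0.01 for the second. Inside the 87-cell group Spearman's rho was -0.01 and -0.04. The median rank was 4157 in that group (quartiles 3652.5 and 4738) and 3644 in the other 26 cells among mesoderm (quartiles 3029 and 3966.25), and all 26 were below their surroundings. The 5-cell group on the side of mesoderm-5 had a median rank of 2589, with cells from 1779 to 4005. The main neighbour of all 5 cells was mesoderm-2, and their surrounding medians ran from 4350 to 5026. The 6 cells whose main neighbour was mesoderm-1 had a narrow range, from 3412 to 4347, with a median of 3738.5.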

How the data were processed

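The deposited table has a row per cell barcode with 2 embedding coordinates, a cluster name and an ATAC rank. Coordinates and ranks are scores without a unit that the authors deposited, per the file headers. The submitters' processing notes name galGal6 as the genome build and, as tools, Signac 1.8.0, Seurat 4.3.0 and Cell Ranger ARC 2.0.0. How cells were filtered, doublets treated and classes and ranks made is not given in the sources used here. Without gene or fragment counts per cell, no doublet caller was run, the part of doublets in any result was not tested, and depth per cell is unknown.

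Computed here were the 15 nearest cells by Euclidean distance in the embedding, each cell's location (the tissue with most of them), rank differences from nearby cells, percentages of cell pairs, groups of linked cells and rank correlations. Shares have exact (Clopper-Pearson) 95% intervals and medians binomial order-statistic 95% intervals. A count of 0 allows up to 3 cells. Cells of 1 preparation are not replicates, so no p-value was computed. Named classes were those supplying at least 1% of the nearest cells of mesoderm-3, among them mesoderm-5, and the notochord. Classes below that share are named where a count or order includes them. The class, its measures and the named classes were chosen with earlier results of these data known. The matched mesoderm-2 cells, linked groups, circle, subsets by own-class cells, bins and relations within a location were chosen after the table was seen. On simulated data, nearest cells and pair percentages matched a direct count, and a planted rank offset and planted linked groups were recovered. The interval of the median was checked for coverage. The cells with the planted offset were scattered evenly, without a dense patch of their own class. Placement by tissue, the matched mesoderm-2 cells and the correlations were not checked in this way. The tools were NumPy 2.4.6, SciPy 1.17.1, pandas 2.3.3 and Matplotlib 3.10.9 in Python 3.11.15.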

Additional observations from a re-analysis of the deposited data

How the results depend on the processing

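Of 37 alternative values for 15 results, 35 stayed within the interval of the reported value or, for the size of the largest linked group, within 1.5 times it. The intervals used were binomial, or Fisher's z interval for a correlation. Mean shares of nearest cells and percentages of pairs are not shares of 136 cells, though their binomial intervals treated them so. The alternatives also reuse the same cells, so staying within an interval is weak evidence that a value is stable. The correlation of mesoderm-3 rank with nearby rank, 0.42 over all 136 cells, was 0.61 by Pearson and 0.054 over the 113 cells among mesoderm. The relation over all cells thus spans the 2 locations. The median difference of the 29 cells with 8 or more of their own class nearby, 55 as reported, was -372 with 50 nearest cells, an alternative chosen after seeing the data. That value has the other sign but lies within the reported interval of -927.5 to 601.5. The cause was not tested. The difference from nearby mesoderm-2 ran from -1138 to -958.75 over its alternatives, and that from all nearby cells of other classes from -1098 to -878. Among ectoderm the difference was -485 with 5 nearest cells. The largest linked group held 59 cells at a linking distance of 0.2 and 105 at 0.5. No paired analysis was possible because there was 1 preparation and no groups of samples to pair. Depth per cell, which could limit the precision of a rank, was not analysed here.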
